A study of Homo sapiens with 6 samples.

Results

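Laminins and the other non-collagen glycoproteins of the extracellular matrix were followed in KNS42 cells after knockdown of the RNA-binding protein MSI1. The genes were 40 named laminin chains, nidogens and heparan sulphate proteoglycans, fibronectin, tenascins, thrombospondins, matricellular proteins, fibrillins, fibulins and elastic fibre proteins, matched by symbol, and all 40 were among the 58174 genes of the expression table. KNS42 is a line from a pediatric glioblastoma, grown in culture with serum, so that its matrix genes were read without the brain tissue around a tumour. Cells received a control siRNA (siC, 3 libraries) or a pool of siRNAs against MSI1 (siMSI1, 3 libraries), and polyadenylated RNA was taken 72 h later. The comparison asks which genes differ in level once MSI1 is depleted. Both groups were the same line and carried an siRNA, and 1 line with 1 pool was examined. Whether the 3 libraries of a group came from separate cultures was not given in the sources used here, so the p-values measure the spread between these libraries, which may be technical. Levels are FPKM, fragments per kilobase of gene scaled to the size of the library, which allow genes of different length to be set side by side.

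The 6 libraries held 13087025 to 18024080 reads on genes. At this depth the limit that a count of 0 allows, 3 reads, is worth between 0.0829 and 0.114 FPKM in a 2 kb gene, counting error only. MSI1 itself, on chromosome 12 (120341330 to 120369164, minus strand, GRCh38), stood at 63.7, 61.9 and 66.9 FPKM in siC, against 12.1, 12.3 and 11.2 FPKM in siMSI1, a log2 fold change of −2.43. The neural progenitor markers SOX2 (243 to 305 FPKM over all libraries), NES and VIM were abundant, whereas OLIG2 and S100B had 0 reads in every library. Of the 10 glial markers, 8 were tested, 6 had a log2 fold change below 0, and their summed level was 1441 to 1502 FPKM in siC and 1201 to 1299 FPKM in siMSI1. Among them GFAP rose by 1.46 and FABP7 fell by 1.12 on the log2 scale (limma, adjusted p = 0.000905 and 0.000274). Markers of endothelial cells summed to 46 to 86 reads per library and those of immune cells to 6 to 23 reads. Epithelial markers, mainly KRT18, took 1259 to 1363 reads per siC library and 851 to 1164 per siMSI1 library. Of the 2 that were tested, 0 passed. The part of these marker differences in the results that follow was not tested.

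Laminins are cross-shaped heterotrimers of one alpha, one beta and one gamma chain that assemble inside the cell and polymerise into the sheet of the basement membrane, where nidogens and perlecan link them to collagen IV. Fibrillins, fibulins and elastin build microfibrils and elastic fibres, while thrombospondins, tenascins and SPARC-family proteins are matricellular: they tune adhesion and growth factor access rather than bear load. In the brain the basement membrane is largely confined to vessels and the pial surface, and gliomas are known for producing matrix proteins of their own.

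Of the 40 genes, 23 had a mean of at least 0.5 FPKM over the 6 libraries and were tested, and 17 were below that level. Their levels spanned a wide range, with 10 genes at a mean of 10 FPKM or more, 9 between 1 and 10 FPKM and 4 between 0.5 and 1 FPKM. With limma across 15069 genes and a Benjamini-Hochberg adjusted p of at most 0.01, 6 of the 23 tested genes rose in siMSI1 (EFEMP1, ELN, SPARCL1, LAMC1, SPARC and MFAP5) and 0 fell. Over all tested genes 5.15% rose and 5.83% fell. At an unadjusted p under 0.05, 15 of the 23 were higher and 2 were lower, against 19.0% and 19.3% of all tested genes, and the voom fit to the reads called 12 higher and 2 lower, against 8.81% and 10.1%. The log2 fold change was above 0 for 18 of the 23 and below 0 for 5, and its median was 0.45, beside 1.46e-05 over all tested genes. In 16 of the 23 all siMSI1 libraries lay above all siC libraries, against 21.4% of all tested genes, and in 2 they lay below, against 21.5%. Of the 23 genes, FBN1 alone passed the filter only through its level in one group. The count of 6 rested on the full set of libraries: it was 2 without siC replicate 1 (EFEMP1 and LAMC1), 3 without siC replicate 3, 4 without siMSI1 replicate 1 and 5 without each of the other 3 libraries. The share of all tested genes that rose moved with it, from 5.15% to 1.63% without siC replicate 1, 2.54% without siC replicate 3, 2.53% without siMSI1 replicate 1 and between 2.54% and 4.45% without each of the others. In bulk RNA, fewer cells of a kind and less RNA per cell cannot be told apart.

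**Figure D1:**
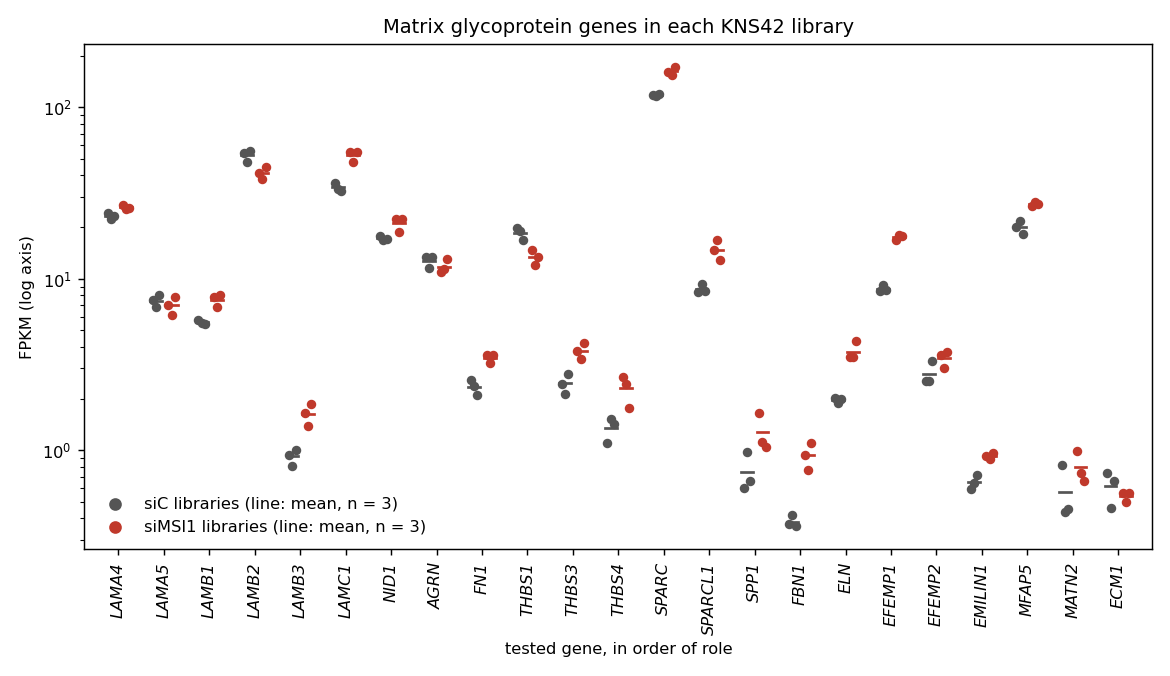
FPKM (log axis) of the 23 tested matrix genes in each library, with siC in grey, siMSI1 in red and a line at the mean of 3 libraries. SPARC was the most abundant gene in both groups, and the groups of 16 genes, EFEMP1 and LAMC1 among them, did not overlap with siMSI1 above siC.

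Summed over all 40 genes, the level was 349, 336 and 343 FPKM in siC and 429, 407 and 446 FPKM in siMSI1, so the groups did not overlap. The means were 343 ± 6.67 and 428 ± 19.6 FPKM (SD, n = 3), a ratio of 1.25, with an exact two-sided permutation p of 0.1, the smallest that 3 against 3 libraries can give. SPARC alone supplied 33.7 to 34.8% of this sum in siC and 37.3 to 38.5% in siMSI1. Without SPARC the sums were 231, 219 and 224 FPKM against 269, 252 and 274 FPKM, a ratio of 1.18. As a share of all reads on genes, the 40 genes took 0.225 to 0.236% in siC and 0.261 to 0.285% in siMSI1.

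The laminin chains differed in direction. Of the 2 gamma chains listed, 1 was expressed at a level that could be tested, and it rose, while the 2 tested alpha chains and the 3 beta chains did not pass the threshold. LAMC1, the common gamma1 chain found in most laminin trimers, was at 36.3, 33.2 and 32.7 FPKM in the siC libraries, against 54.8, 47.9 and 55.1 FPKM in siMSI1. All 3 siMSI1 libraries lay above every siC library. The means were 34.1 ± 1.97 and 52.6 ± 4.09 FPKM (SD, n = 3), and the log2 fold change was 0.62 (SE 0.080, 95% interval 0.44 to 0.81, limma adjusted p = 0.00168). It passed the threshold under all 16 alternatives, with adjusted p between 1.48e-05 and 0.00958. These values rest on 3953 to 5056 reads in siC and 5275 to 6784 reads in siMSI1. LAMC1 (ENSG00000135862) lies on chromosome 1 (183023420 to 183145592, plus strand), and no exon of another annotated gene overlaps its exons.

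Of the alpha chains, which carry the cell-binding globular domains, LAMA4 was the most abundant. LAMA4, the alpha4 chain of vascular and mesenchymal basement membranes, was at 24.2, 22.4 and 23.2 FPKM in siC and 26.8, 25.6 and 25.8 FPKM in siMSI1. All siMSI1 libraries lay above all siC libraries, but the log2 difference was 0.16 (SE 0.062, 95% interval 0.02 to 0.31) and did not pass (limma adjusted p = 0.0904). LAMA5, the broadly expressed alpha5 chain, was at 6.82 to 8.03 FPKM in siC and 6.18 to 7.84 FPKM in siMSI1, with overlapping groups and a log2 difference of −0.09 (95% interval −0.34 to 0.16, limma adjusted p = 0.594). LAMA5 shares exon positions with ADRM1 on the opposite strand, and ADRM1 stood at 89.8 FPKM in siC and 121 FPKM in siMSI1. The remaining alpha chains were rare. LAMA2, the chain of muscle and peripheral nerve, had 12 to 24 reads per library, LAMA3, an epithelial chain, had 0 to 6, and LAMA1, the embryonic chain, had 0 or 1.

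The beta chains were measured in opposite directions, although none passed the adjusted p of 0.01. LAMB2, the beta2 chain of synaptic and vascular basement membranes, was the most abundant laminin gene in siC, at 53.8, 48.1 and 55.2 FPKM, and stood at 41.1, 37.9 and 45.1 FPKM in siMSI1. Every siMSI1 library was below every siC library. The log2 difference was −0.34 (SE 0.087, 95% interval −0.54 to −0.14, limma adjusted p = 0.026). It was called in 3 of 16 alternatives, 1 of them this same fit read at an adjusted p of 0.05. LAMB1, the more widely expressed beta1 chain, was at 5.75, 5.50 and 5.47 FPKM in siC and 7.78, 6.85 and 7.99 FPKM in siMSI1. Here every siMSI1 library was above every siC library. The log2 difference was 0.43 (SE 0.085, 95% interval 0.23 to 0.63), just outside the threshold (limma adjusted p = 0.0103). It was called in 4 of 16 alternatives, 1 of them this same fit read at an adjusted p of 0.05. LAMB1 overlaps exons of DLD on the opposite strand, and DLD stood at 23.8 FPKM in siC and 25.5 FPKM in siMSI1. LAMB3, the beta3 chain of epithelial anchoring laminin, was low, at 0.814 to 1.01 FPKM (66 to 69 reads) in siC and 1.38 to 1.87 FPKM (85 to 126 reads) in siMSI1 (log2 difference 0.76, limma adjusted p = 0.0175). LAMC3, the second gamma chain listed, had 0 reads in all siC libraries and 0 to 2 in siMSI1.

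Ratios between chains were formed within each library, a comparison chosen after the values were seen. The ratio of LAMB1 to LAMB2 level was 0.107, 0.114 and 0.0990 in siC and 0.189, 0.181 and 0.177 in siMSI1. The groups were far apart relative to their SDs of 0.00772 and 0.00634. The mean ratio was 1.71 times as large in siMSI1 (exact two-sided permutation p = 0.1, the smallest possible). Every siMSI1 library was above every siC library for LAMB1 and below for LAMB2, so this ratio had to separate. Its p restates those single-gene results and adds no support to them. LAMC1 divided by the summed beta chains was 0.600, 0.611 and 0.530 in siC and 1.08, 1.04 and 1.003 in siMSI1. In RNA level, gamma chain was thus below the beta chains in siC and at about their sum in siMSI1. LAMA4 divided by LAMC1 was 0.664, 0.673 and 0.709 in siC and 0.490, 0.534 and 0.467 in siMSI1. The summed beta chains themselves overlapped between the groups, at 54.4 to 61.7 FPKM in siC and 46.2 to 55.0 FPKM in siMSI1 (exact two-sided permutation p = 0.2). These ratios compare RNA and not protein.

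**Figure D2:**
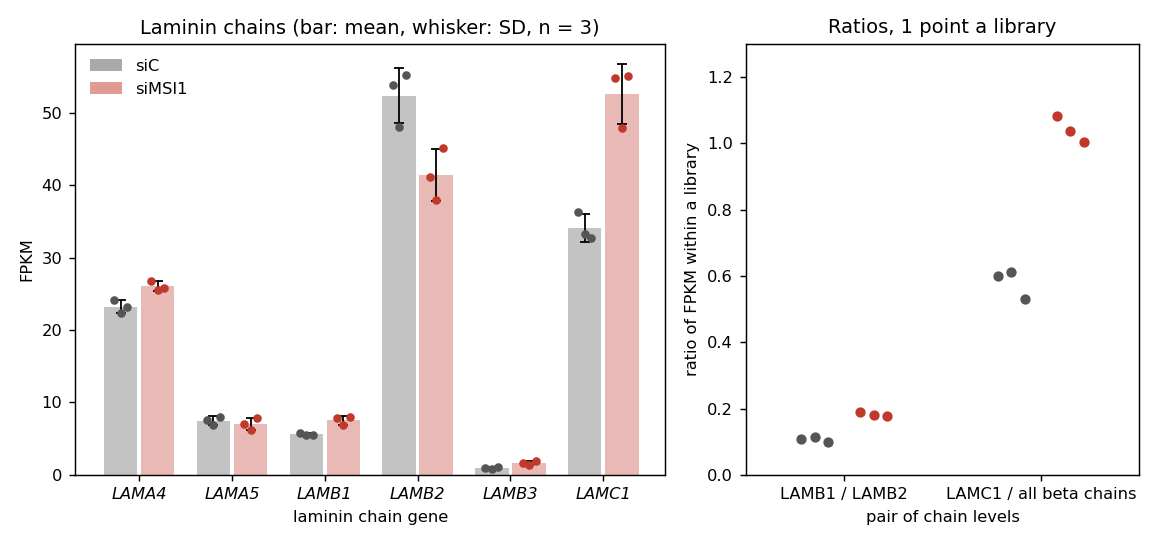
Left, FPKM of the 6 tested laminin chain genes (bars, mean; whiskers, SD; points, the 3 libraries per group; siC grey, siMSI1 red). Right, FPKM ratios within each library, in which LAMB1 over LAMB2 ran from 0.0990 to 0.114 in siC, below the 0.177 to 0.189 of siMSI1.

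The 120 bases before the RefSeq start of the 3 main beta and gamma chain genes are shown because the ratios between these chains differed between the groups. LAMC1 is at chr1:183023300-183023419 (plus strand), LAMB1 at chr7:108003162-108003281 (minus strand) and LAMB2 at chr3:49133051-49133170 (minus strand) of GRCh38.p14, each written 5′ to 3′ on the gene's strand. Capitals mark matches on either strand to any of 6 motifs. The GC box, bound by Sp1-type factors, was searched as GGGCGG. The TATA box, which positions the start of transcription, was searched as TATAAA. The box bound by the nuclear factor Y complex was searched as CCAAT. The element of the AP-1 factors (Jun and Fos) was searched as TGANTCA. The element of the TEAD factors, partners of YAP, was searched as GGAATG. The E-box bound by Myc-type factors was searched as CACGTG.
LAMC1: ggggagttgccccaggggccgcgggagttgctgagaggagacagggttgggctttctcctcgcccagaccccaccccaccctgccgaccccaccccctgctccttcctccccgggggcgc
LAMB1: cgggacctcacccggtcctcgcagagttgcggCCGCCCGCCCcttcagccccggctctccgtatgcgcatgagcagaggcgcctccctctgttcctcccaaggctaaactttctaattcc
LAMB2: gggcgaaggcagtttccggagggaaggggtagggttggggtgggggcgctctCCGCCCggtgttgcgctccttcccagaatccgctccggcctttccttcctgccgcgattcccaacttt
The capitals in LAMB1 are 2 overlapping GC box matches and those in LAMB2 are 1. LAMC1 had no match to any of the 6 motifs in these bases. A GC box match was present in 34.0% of the 35116 RefSeq promoters in the same window. In the 250 bases before the start, LAMC1 had 3 GC box matches, LAMB1 4 and LAMB2 1. Of all promoters, 42.6% had such a match in those 250 bases. The 120-base windows had a GC content of 73.3% (LAMC1), 65.0% (LAMB1) and 65.8% (LAMB2), beside a median of 60.0% over all promoters. These matches are letters in a window and were not measured as binding sites. The RefSeq starts of LAMB1 and LAMB2 lie inside the longer GENCODE gene models, so part of each window is within the gene.

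Of the 4 genes that link laminin to the rest of the basement membrane, 2 were tested and neither passed. NID1, which encodes nidogen 1, the bridge between the laminin gamma1 chain and collagen IV, was at 17.8, 16.9 and 17.1 FPKM in siC and 22.3, 18.8 and 22.3 FPKM in siMSI1. No siMSI1 library reached down to siC, and the log2 difference was 0.29 (SE 0.084, 95% interval 0.09 to 0.48, limma adjusted p = 0.0404). AGRN, the heparan sulphate proteoglycan agrin, was at 13.3, 11.5 and 13.3 FPKM in siC and 10.9, 11.3 and 13.0 FPKM in siMSI1. Its groups overlapped, with a log2 difference of −0.12 (SE 0.095, 95% interval −0.34 to 0.10, limma adjusted p = 0.41). NID2, the second nidogen, was below the filter, with 7, 18 and 5 reads in siC and 35, 21 and 36 in siMSI1. NID2 shares exon positions with RTRAF on the opposite strand, so its few reads are uncertain. RTRAF stood at 7.502 FPKM in siC and 8.999 FPKM in siMSI1. HSPG2, which encodes perlecan, was also below the filter, with 68, 67 and 62 reads against 43, 40 and 49.

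Fibronectin and the tenascins were expressed at a low level in this line. FN1, the fibronectin gene, was at 2.56, 2.37 and 2.11 FPKM in siC and 3.57, 3.22 and 3.60 FPKM in siMSI1. The groups did not overlap, and the log2 difference of 0.55 (SE 0.112, 95% interval 0.29 to 0.81) just missed the threshold (limma adjusted p = 0.0115). It was called in 3 of 16 alternatives, 1 of them this same fit read at an adjusted p of 0.05. None of the 3 tenascins was tested. TNC, a glycoprotein abundant in many gliomas, was nearly silent here, with 4 to 8 siC reads and 3 to 6 siMSI1 reads per library. TNR, the tenascin of perineuronal nets, had 3 to 7 siC reads and 0 or 1 siMSI1 reads. TNXB had 25, 33 and 24 reads in siC and 60, 43 and 55 in siMSI1, but it shares exon positions with ATF6B on the same strand, so its reads are uncertain. ATF6B stood at 6.78 FPKM in siC and 3.25 FPKM in siMSI1.

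The thrombospondins are trimeric or pentameric matricellular proteins that bind calcium, and THBS1 is known as an inhibitor of vessel growth and an activator of latent TGF-beta. THBS1 was at 19.7, 18.9 and 16.8 FPKM in siC and 14.7, 12.1 and 13.3 FPKM in siMSI1. Every siMSI1 library was below every siC library. The log2 difference was −0.46 (SE 0.096, 95% interval −0.68 to −0.24), just short of the threshold (limma adjusted p = 0.0116). It was called in 4 of 16 alternatives, 1 of them this same fit read at an adjusted p of 0.05. The pentameric family members had the opposite sign. THBS3 was at 2.43, 2.13 and 2.80 FPKM in siC and 3.80, 3.38 and 4.22 FPKM in siMSI1 (log2 difference 0.62, limma adjusted p = 0.0145). THBS4 was at 1.10, 1.52 and 1.42 FPKM against 2.68, 2.44 and 1.77 FPKM (log2 difference 0.72, limma adjusted p = 0.0316). The groups did not overlap in either gene, and neither passed. THBS1 and THBS3 each share exon positions with 2 genes on the opposite strand. For THBS1, THBS1-AS1 stood at 4.08 FPKM in siC and 2.43 FPKM in siMSI1, and FSIP1 at 2.32 and 2.62 FPKM. For THBS3, MTX1 stood at 11.6 FPKM in siC and 15.2 FPKM in siMSI1, and THBS3-AS1 at 7.23 and 4.06 FPKM. Whether counting used the strand was not given in the sources used here, so reads of such pairs may not be separated. THBS2, related to THBS1, had 9, 4 and 0 reads in siC and 0, 2 and 16 in siMSI1.

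SPARC, an acidic calcium-binding glycoprotein that binds collagen and is highly expressed in gliomas, was by far the most abundant of the 40 genes. It stood at 118, 117 and 119 FPKM in siC, against 160, 155 and 172 FPKM in siMSI1. The siC libraries were nearly equal, and all siMSI1 libraries lay above them. The means were 118 ± 1.34 and 162 ± 8.56 FPKM (SD, n = 3), and the log2 fold change was 0.46 (SE 0.064, 95% interval 0.31 to 0.61, limma adjusted p = 0.00236). It rests on 8298 to 10203 siC reads and 9825 to 11921 siMSI1 reads per library. The call was lost without siC replicate 1, 2 or 3, when the limma adjusted p was 0.0189, 0.0128 and 0.0118, and without trend and robust moderation (0.0112). SPARC (ENSG00000113140) lies on chromosome 5 (151661096 to 151686975, minus strand).

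SPARCL1, also called hevin, a SPARC relative secreted by astrocytes that promotes synapse formation, was at 8.37, 9.30 and 8.50 FPKM in siC and 14.7, 16.9 and 12.8 FPKM in siMSI1. The groups did not overlap. The means were 8.72 ± 0.505 and 14.8 ± 2.05 FPKM (SD, n = 3), from 425 to 585 reads and 638 to 769 reads, and the log2 fold change was 0.75 (SE 0.108, 95% interval 0.50 to 0.997, limma adjusted p = 0.00272). Without siC replicate 1, siC replicate 3 or siMSI1 replicate 1 the limma adjusted p was 0.0157, 0.0121 and 0.0122. SPARCL1 (ENSG00000152583) lies on chromosome 4 (87473335 to 87531061, minus strand). SPP1, the secreted phosphoprotein osteopontin, was close to the filter, at 0.604, 0.976 and 0.659 FPKM in siC and 1.64, 1.12 and 1.05 FPKM in siMSI1, and did not pass (log2 difference 0.69, limma adjusted p = 0.0822). POSTN, which encodes periostin, had 5, 5 and 1 reads in siC and 0, 2 and 8 in siMSI1.

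The few reads of POSTN and THBS2 were spread unevenly within groups, as were those of the fibroblast collagen gene COL3A1, which had 3 to 106 reads per siC library and 15 to 84 per siMSI1 library. COL3A1 stood at 1.04, 0.438 and 0.0306 FPKM in siC and 0.149, 0.190 and 0.859 FPKM in siMSI1, highest in siC replicate 1 and siMSI1 replicate 3, the libraries in which THBS2 was highest too. Of 10 fibroblast markers, 5 were tested and 1, ACTA2, fell (log2 fold change −0.61, limma adjusted p = 0.00445), and the list took 8725 to 11252 reads per siC library and 7021 to 8622 per siMSI1 library. The part of such cells or genes in these values was not tested.

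The same 120-base windows are shown for the most abundant matricellular genes, of which SPARC and SPARCL1 rose and THBS1 had the opposite sign. SPARC is at chr5:151686916-151687035 (minus strand), SPARCL1 at chr4:87529377-87529496 (minus strand) and THBS1 at chr15:39580959-39581078 (plus strand) of GRCh38.p14, with capitals for the motifs named above.
SPARC: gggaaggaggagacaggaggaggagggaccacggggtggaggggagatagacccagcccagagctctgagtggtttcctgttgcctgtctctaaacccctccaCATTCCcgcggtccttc
SPARCL1: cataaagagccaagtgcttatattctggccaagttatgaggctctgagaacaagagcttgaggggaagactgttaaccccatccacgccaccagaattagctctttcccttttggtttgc
THBS1: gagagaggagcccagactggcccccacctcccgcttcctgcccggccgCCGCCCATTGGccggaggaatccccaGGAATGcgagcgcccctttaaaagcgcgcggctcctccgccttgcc
The capitals in SPARC are a TEAD match on the reverse strand. THBS1 held a GC box match that runs into a CCAAT match, and a TEAD match further on. SPARCL1 had no match in these bases. The SPARC window lies partly, and the SPARCL1 window wholly, inside the longer GENCODE gene model. A TEAD match occurred in 5.60% and a CCAAT match in 20.4% of all promoters in this window, while TATA box, AP-1 and E-box matches, of which these 6 windows held none, occurred in 5.63%, 3.34% and 3.90%. The windows had a GC content of 61.7% (SPARC), 46.7% (SPARCL1) and 70.8% (THBS1). In the 250 bases before its start, SPARCL1 had 1 TATA box match and 1 CCAAT match. Such matches occurred there in 10.7% and 32.0% of all promoters.

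The microfibril and elastic fibre genes included 3 of the 6 that rose. Of 12 such genes, 6 were tested, 3 rose (EFEMP1, ELN and MFAP5) and 0 fell, against 5.15% and 5.83% of all tested genes. The log2 fold change was above 0 in all 6, with a median of 0.67, beside 1.46e-05 over all tested genes. FBN1, counted among the 6, entered the test only through its siMSI1 level. EFEMP1, the fibulin-3 gene, whose secreted product is known from glioma matrix and from inherited retinal drusen, was at 8.44, 9.14 and 8.56 FPKM in siC and 16.8, 18.1 and 17.8 FPKM in siMSI1. The groups were widely separated, with little spread within either. The means were 8.71 ± 0.373 and 17.6 ± 0.697 FPKM (SD, n = 3), a 2.01-fold difference from 488 to 655 reads and 939 to 1014 reads. The log2 fold change was 1.002 (SE 0.069, 95% interval 0.84 to 1.16, limma adjusted p = 0.000247), and all 16 alternatives called it, with adjusted p between 3.6e-07 and 0.00249. EFEMP1 (ENSG00000115380) lies on chromosome 2 (55865967 to 55924139, minus strand), with no exon overlap with another annotated gene.

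ELN encodes tropoelastin, the soluble precursor that is crosslinked into the core of elastic fibres. It was at 2.01, 1.88 and 1.998 FPKM in siC and 3.47, 3.47 and 4.32 FPKM in siMSI1. The groups did not overlap, and the highest siMSI1 library stood apart from the other two. The means were 1.96 ± 0.0693 and 3.76 ± 0.489 FPKM (SD, n = 3), from 188 to 223 reads and 298 to 406 reads, and the log2 fold change was 0.90 (SE 0.120, 95% interval 0.62 to 1.17, limma adjusted p = 0.00203). It was called in 15 of 16 alternatives and had an adjusted p of 0.0111 without siC replicate 1. ELN (ENSG00000049540) lies on chromosome 7 (74027789 to 74069907, plus strand). ELN-AS1, on the opposite strand, stood at 1.09 FPKM in siC and 1.52 FPKM in siMSI1.

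MFAP5, which encodes a small glycoprotein of fibrillin microfibrils, was at 20.0, 21.8 and 18.2 FPKM in siC and 26.5, 28.1 and 27.4 FPKM in siMSI1. Again no siMSI1 library reached down to siC. The means were 20.0 ± 1.81 and 27.4 ± 0.814 FPKM (SD, n = 3), and the log2 fold change was 0.45 (SE 0.080, 95% interval 0.27 to 0.64, limma adjusted p = 0.00613). The call was the least stable of the 6, with 9 of 16 alternatives past the threshold, and the adjusted p was 0.0307, 0.0196, 0.0188, 0.0229 and 0.0112 without siC replicate 1, siC replicate 3 and siMSI1 replicates 1, 2 and 3. MFAP5 (ENSG00000197614) lies on chromosome 12 (8637346 to 8662888, minus strand).

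FBN1, which encodes fibrillin-1, the backbone of microfibrils, was low, at 0.370, 0.420 and 0.359 FPKM in siC and 0.942, 0.765 and 1.10 FPKM in siMSI1. The groups did not overlap, but the log2 difference of 1.09 had a wide interval (SE 0.269, 95% interval 0.46 to 1.71) and did not pass (limma adjusted p = 0.0229). FBN1 entered the test only through its siMSI1 level. Its log2 difference was 0.48 on log2(FPKM + 1), 1.25 on log2(FPKM + 0.01) and 1.27 with voom (voom adjusted p = 1.91e-05). FBN1 was called in 3 of 15 alternatives: voom, the fit without trend and robust moderation, and the main fit read at the looser threshold. It was not called when any library was left out (limma adjusted p between 0.0403 and 0.0884). It rests on 83 to 122 reads in siC and 161 to 253 reads in siMSI1. EFEMP2, the fibulin-4 gene needed for elastic fibre assembly, had a log2 difference of 0.30 (limma adjusted p = 0.163), and EMILIN1, an elastin interface protein, one of 0.45 (limma adjusted p = 0.149). EFEMP2 shares exon positions with MUS81 on the opposite strand, which stood at 15.0 FPKM in siC and 12.2 FPKM in siMSI1. The other 6 genes were below the filter. EMILIN2 had 10, 17 and 9 reads in siC and 43, 27 and 32 in siMSI1, while FBLN1, a fibulin of basement membranes and elastic fibres, had 42, 33 and 29 reads against 19, 15 and 24. FBLN2 had 0 to 6 reads per library, FBLN5 1 to 4, FBN2 0 to 2 and MFAP2 0 to 3.

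**Figure D3:**
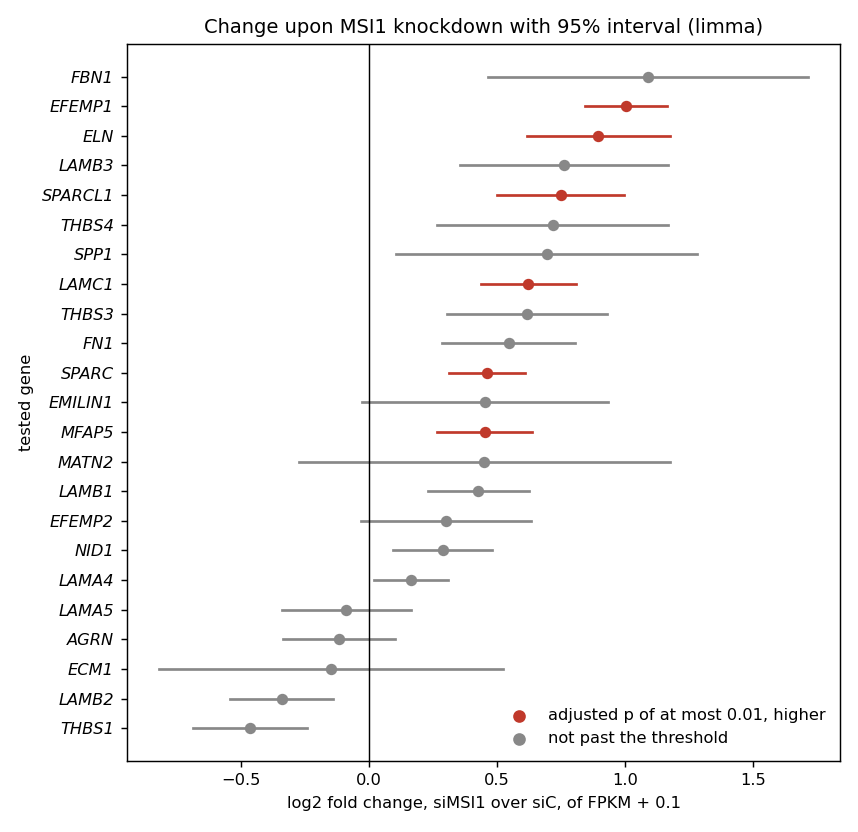
Log2 fold change of siMSI1 over siC, computed on FPKM + 0.1, for the 23 tested genes with its 95% interval from limma. The 6 genes past the adjusted p of 0.01 (red) run from MFAP5 at 0.45 to EFEMP1 at 1.002, and FBN1 at 1.09 has one of the widest intervals.

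The last 2 genes, the filament adaptor matrilin gene MATN2 and ECM1, a secreted protein of skin and vessel matrix, were both low and did not pass. MATN2 had a log2 difference of 0.45 (limma adjusted p = 0.334) and ECM1 one of −0.15 (limma adjusted p = 0.752), with overlapping groups.

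Among the 17 genes below the filter, 12 had under 25 reads in every library and 4 (LAMA1, LAMC3, FBN2 and MFAP2) had at most 3 reads in every library, and for these 4 no difference was detectable at this depth. The groups were apart with siMSI1 higher for NID2, TNXB and EMILIN2 and with siMSI1 lower for HSPG2, TNR and FBLN1, and overlapped for the remaining 11. Over all tested genes such separation occurred in 21.4% (higher) and 21.5% (lower). No share was taken over genes below the filter, so these separations are not read as a result. When the 29846 genes with a value above 0 in any library were entered in the limma fit, none of these 6 passed. The limma adjusted p was 0.0584 for EMILIN2, 0.0854 for NID2, 0.212 for TNXB, 0.354 for TNR, 0.404 for FBLN1 and 0.566 for HSPG2.

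**Figure D4:**
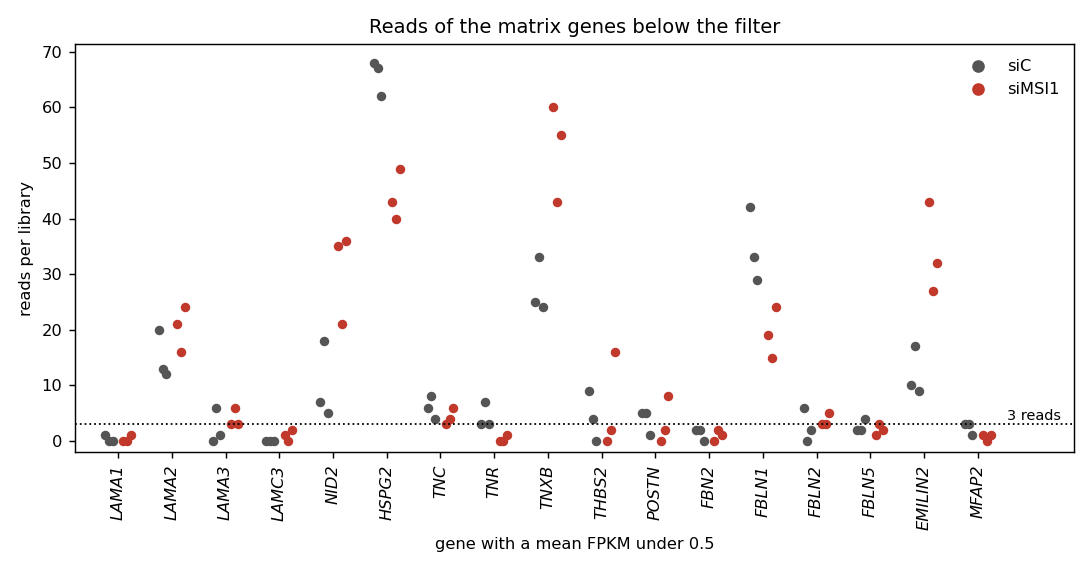
Reads per library of the 17 matrix genes with a mean FPKM under 0.5, siC in grey and siMSI1 in red, with a dotted line at 3 reads. HSPG2, at 62 to 68 reads in siC, and TNXB, at 43 to 60 reads in siMSI1, were the best covered, and genes such as FBN2 and MFAP2 lay at or under the line.

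The order of levels also differed between the groups. In siC the leading genes were SPARC, LAMB2, LAMC1, LAMA4 and MFAP5, and in siMSI1 they were SPARC, LAMC1, LAMB2, MFAP5 and LAMA4. In siC, LAMB2 (48.1 to 55.2 FPKM) lay clear of LAMC1 (32.7 to 36.3 FPKM), and in siMSI1 LAMC1 (47.9 to 55.1 FPKM) lay clear of LAMB2 (37.9 to 45.1 FPKM). In siC, THBS1 overlapped both MFAP5 above it and NID1 below it, and SPARCL1 overlapped EFEMP1, so these orders do not exceed the spread. In siMSI1 the pairs MFAP5 and LAMA4, EFEMP1 and SPARCL1, SPARCL1 and THBS1, THBS1 and AGRN, and LAMB1 and LAMA5 overlapped, while EFEMP1 ranked 7 rather than 10 and THBS1 9 rather than 6.

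The genes around these glycoproteins were counted from 4 further lists, again against 5.15% higher and 5.83% lower over all tested genes. Of 9 basement membrane collagen genes, 7 were tested, 3 rose and 0 fell, with a median log2 fold change of −0.02 over the 7. COL4A6 rose from 2.99 to 4.70 FPKM (log2 fold change 0.63, limma adjusted p = 0.0024), COL4A5 from 17.1 to 22.5 FPKM (0.40, adjusted p = 0.00383) and COL4A1, a chain of the ubiquitous collagen IV network, from 8.58 to 11.3 FPKM (0.39, adjusted p = 0.00481). Of 26 matrix receptors, 18 were tested, 0 rose and 3 fell, with a median of −0.15. At an unadjusted p under 0.05 (limma), 5 of the 18 were higher and 7 lower, against 19.0% and 19.3% of all tested genes. ITGA6, the alpha6 integrin chain that binds laminins, fell from 5.97 to 3.76 FPKM (−0.66, limma adjusted p = 0.00558). The integrin chain genes ITGB4 and ITGA7 had the opposite sign and did not pass (limma adjusted p = 0.0213 and 0.0111). The syndecan SDC2, a heparan sulphate co-receptor, fell from 17.6 to 11.8 FPKM (−0.57, limma adjusted p = 0.00223), and the hyaluronan receptor CD44 fell from 84.8 to 61.9 FPKM (−0.46, limma adjusted p = 0.00303).

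Of 20 assembly and crosslinking genes, 12 were tested, 1 rose and 1 fell, with a median of 0.06. PCOLCE2, an enhancer of procollagen processing, rose by 2.88 on the log2 scale (limma adjusted p = 0.00184), with 3 to 5 reads per siC library and 55 to 63 per siMSI1 library. Its siC mean, 0.0784 FPKM, was below the filter, so it entered the test only through siMSI1. LTBP1, which tethers latent TGF-beta to microfibrils, fell from 1.38 to 0.687 FPKM (−0.91, limma adjusted p = 0.00797). Of 37 other matrix glycoproteins, 12 were tested, 1 rose and 2 fell, with a median of −0.05. SRPX2, which also entered the test only through siMSI1, rose from 0.173 to 1.79 FPKM (2.79, limma adjusted p = 0.000522), whereas FBLN7, the fibulin-7 gene, fell from 3.50 to 1.37 FPKM (−1.29, adjusted p = 0.000398) and MMRN1, which encodes multimerin 1, from 15.6 to 8.25 FPKM (−0.91, adjusted p = 0.00128). These 11 calls across the 4 lists depended on the libraries: 4 held without siC replicate 1 (PCOLCE2, SRPX2, FBLN7 and MMRN1), 5 without siC replicate 2, 4 without siC replicate 3, 3 without siMSI1 replicate 1, 5 without siMSI1 replicate 2 and 9 without siMSI1 replicate 3. FBLN7, MMRN1 and SRPX2 held in every one of these 6 fits, and LTBP1 in none, with adjusted p between 0.0152 and 0.0390.

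**Figure D5:**
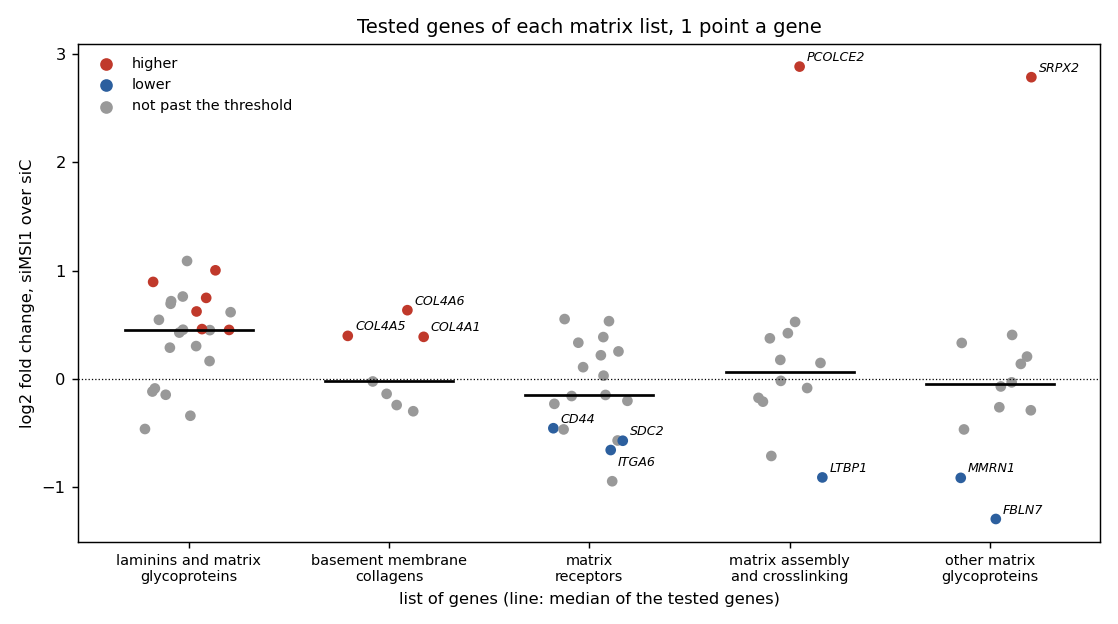
Log2 fold change, siMSI1 over siC, of each tested gene in the laminin and glycoprotein set and in the 4 further matrix lists, with a line at each list's median (0.45, −0.02, −0.15, 0.06 and −0.05 from left to right). Red points rose, blue points fell and grey points did not pass the adjusted p of 0.01.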

How the data were processed

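The deposited table held FPKM values for 6 libraries, made by the authors from 150-base reads of strand-specific, polyadenylated libraries. Per the labels and the study's methods, reads were trimmed with cutadapt 1.14, aligned to hg38 with HISAT2 2.1.0, sorted with SAMtools 1.5 and counted with featureCounts 1.5.3, and the authors scaled and tested them with edgeR 3.18.1. The authors' comparison columns (log2 fold change, p-value and FDR) were not used.

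Genes averaging 0.5 FPKM or more over the libraries were tested on log2(FPKM + 0.1) with limma 3.58.1 in R 4.3.3 (trend and robust moderation, two-sided), with Benjamini-Hochberg adjustment over 15069 genes and a threshold of 0.01. A fold change on this scale understates that of low genes. The FPKM gave whole reads for 100% of values (tolerance 0.01 reads), and voom was run on those reads as 1 of 16 alternatives. Another of the 16 was the main fit read at an adjusted p of 0.05. It must keep every main call and add each gene with an adjusted p between 0.01 and 0.05. All 40 genes are accounted for, with library values for each gene past the threshold or at a mean of 10 FPKM or more. From each further list, up to 4 called genes with the largest log2 fold change are named. The genes and lists were chosen with earlier results of these data known. Positions are from GENCODE on GRCh38 and promoters from RefSeq (GRCh38.p14), which gave 31 of 40 genes (not MFAP5, ELN, EMILIN1, EFEMP1, LAMA1, LAMC3, MATN2, TNR or AGRN).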

Additional observations from a re-analysis of the deposited data

How the results depend on the processing

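Under 16 alternatives, each of the 23 tested genes and MSI1 kept the sign of its log2 fold change wherever it was tested. A kept sign is no measure of a difference. LAMA5 was at −2.19e-05 without siMSI1 replicate 2, and ECM1 at −0.03 without siC replicate 1. FBN1, EMILIN1, MATN2 and ECM1 fell outside the fit limited to means of 1 FPKM or more. The count of genes called higher, 6, was 13 at an adjusted p of 0.05 (12.2% of all tested genes) and 12 with voom on the recovered reads (8.81%), and 2 to 5 when 1 library was left out (1.63% to 4.45%). It was 4 with no filter on low genes (1.18%), which ended the calls of SPARCL1 and MFAP5, and 4 without trend and robust moderation (2.39%), where SPARC, SPARCL1 and MFAP5 did not pass and FBN1 did. The count called lower, 0, was 1 (THBS1) in the fit limited to 1 FPKM or more, where 7.49% of all tested genes fell. It was 2 (THBS1 and LAMB2) at an adjusted p of 0.05 (12.9% of all), with the replicate block (7.78%) and with voom (10.1%). It was 0 whichever library was left out (1.80% to 6.15%). With the replicate number as a block, 8 genes were called higher (7.15% of all). Libraries of the same number shared little (correlations of deviations −0.0661, 0.0783 and 0.083), and not every library correlated best with its own number, so the block is no test of a pairing. Leaving out a library reduces the samples in the fit; the cause of the other changes was not tested. Median centring and quantile normalization moved the median of all tested genes by 0.0123 and 0.00184 on the log2 scale. Depth limits the 17 genes below the filter.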
